A study of Mus musculus with 16 samples.

Results

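BMAL1 binding was examined at 4 genes of liver cells that make plasma proteins or detoxify ammonia: Rbp4, Apoe, Ahsg and Cps1. The members were every interval that the authors' merged peak table assigned to one of these genes at any distance, which came to 5 of 7043 intervals and 4 of 5527 nearest genes. The genes were picked for the peaks they carried in these same libraries, so their calls are described here and not tested. Chromatin immunoprecipitation and sequencing was run on liver of C57bl6 mice aged 8 to 16 weeks, kept in 12 h of light and 12 h of dark and given high-fat food (42% of calories) from the first week of the control or misalignment schedule. The 8 BMAL1 libraries were male control ZT0, male misaligned ZT0, male control ZT12, male misaligned ZT12, and the same groups of females. ZT0 is the start of the light phase and ZT12 the start of the dark phase. Each library was made from livers pooled from 3 to 4 mice, and each group had 1 library. All groups, controls included, received the high-fat diet, and what the misaligned animals underwent is not stated in the sources used here. The 8 matching IgG libraries were not analysed here.

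BMAL1 pairs with CLOCK to bind E-box elements and switch on genes of the circadian clock and of liver metabolism. Hepatocytes make most plasma proteins. RBP4 carries retinol from liver stores to other tissues, APOE directs lipoprotein remnants to their receptors, and AHSG (fetuin-A) binds calcium phosphate in plasma. CPS1 is the mitochondrial enzyme that catalyses the first and rate-limiting step of the urea cycle.

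The libraries differed widely in the number of peaks, and male misaligned ZT12 stood apart with 5542 of the 9986 peaks. The others held 1864 (male misaligned ZT0), 1330 (female misaligned ZT0), 373 (male control ZT0), 290 (male control ZT12), 225 (female control ZT0), 221 (female misaligned ZT12) and 141 (female control ZT12). The read depth is unknown. The smallest background value of each list, a quantity that moves with depth and fragment length, was 4.25 to 6.16 fragments. With 1 pooled library a group there was no replicate error to set a difference against. Peak calls mark enriched sites and not expression, and a missing call does not show that BMAL1 was absent. A bulk library cannot tell fewer bound cells from less binding per cell.

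Of the 4 genes, 3 had promoter entries in RefSeq (Rbp4, Apoe and Ahsg). For each, the window most covered by peaks is printed here because the peaks lay on it. Another Rbp4 window, of the start at 38125321, was overlapped by 2 of the 4 peaks and is not shown. Each shows the 250 bases before a RefSeq start on GRCm38.p6, 5′ to 3′ along the gene, with capitals for the bases inside the BMAL1 peak, or inside all 4 peaks for Rbp4. The positions are chr19:38124812-38125061 on the minus strand for Rbp4, chr7:19699189-19699438 on the minus strand for Apoe and chr16:22891765-22892014 on the plus strand for Ahsg.
Rbp4: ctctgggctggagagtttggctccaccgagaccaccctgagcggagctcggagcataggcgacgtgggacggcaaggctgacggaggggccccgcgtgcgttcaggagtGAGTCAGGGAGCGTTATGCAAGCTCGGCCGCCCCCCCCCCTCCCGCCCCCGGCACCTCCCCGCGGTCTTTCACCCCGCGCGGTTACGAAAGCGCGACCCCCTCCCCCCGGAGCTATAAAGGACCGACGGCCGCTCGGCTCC
Apoe: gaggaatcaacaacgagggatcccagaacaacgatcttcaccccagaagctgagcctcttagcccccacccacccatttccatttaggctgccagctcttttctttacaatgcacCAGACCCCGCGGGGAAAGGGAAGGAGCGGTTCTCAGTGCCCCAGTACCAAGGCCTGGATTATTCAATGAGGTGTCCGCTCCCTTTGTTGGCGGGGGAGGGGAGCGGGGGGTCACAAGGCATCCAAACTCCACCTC
Ahsg: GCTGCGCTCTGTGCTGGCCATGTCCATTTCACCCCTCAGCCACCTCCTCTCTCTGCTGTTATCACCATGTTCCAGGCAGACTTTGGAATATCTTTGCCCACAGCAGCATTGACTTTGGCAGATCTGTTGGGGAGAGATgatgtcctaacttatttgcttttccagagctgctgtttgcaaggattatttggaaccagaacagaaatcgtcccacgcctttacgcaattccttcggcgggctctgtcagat

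Rbp4 had a peak called at its promoter in 4 of 8 libraries, the widest spread of the 4 genes. A single interval (ENSMUSG00000024990, chromosome 19, 38124668 to 38125343, annotated promoter, centre 194 bp upstream of the authors' transcription start site, TSS) was called in male misaligned ZT0, male control ZT12, male misaligned ZT12 and female misaligned ZT0. The fold enrichment that the authors' lists give for the summit was 5.79 in male misaligned ZT12, 4.14 in male control ZT12, 4.11 in female misaligned ZT0 and 3.73 in male misaligned ZT0. In the same order -log10 q, the significance the authors' peak caller gave after adjustment, was 21.2, 5.96, 8.66 and 5.48. The other 4 libraries, male control ZT0, both female controls and female misaligned ZT12, had no call.

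Fragments at a summit were recovered from the authors' fold enrichment and -log10 p and set against the lowest background of the list. This scale is a rough allowance for depth and does not make heights fully comparable between libraries. The Rbp4 summit held 28 fragments over a background of 6.76 in male misaligned ZT0 and 27 over 5.76 in male control ZT12. It held 54 over 8.51 in male misaligned ZT12 and 36 over 8.01 in female misaligned ZT0. The height above background was then 4.91 times the lowest background of the list (95% counting interval 2.74 to 7.79) in male misaligned ZT0 and 4.84 (2.74 to 7.64) in male control ZT12. It was 10.7 (7.54 to 14.6) in male misaligned ZT12 and 5.53 (3.40 to 8.27) in female misaligned ZT0. Male misaligned ZT12 was thus the highest on this scale, and its interval overlapped those of the other 3 slightly. These exact Poisson intervals cover counting error only, and fragments copied by PCR are not independent.

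The greater height in male misaligned ZT12 was shared by most sites. Over 958 other intervals called in both, the median ratio of heights to male misaligned ZT0 was 1.58 (quartiles 1.25 and 1.97), and at Rbp4 it was 2.18. Against male control ZT12 the median over 195 intervals was 2.19 (1.82 to 2.73) and the Rbp4 ratio 2.21. Against female misaligned ZT0 the median over 830 intervals was 1.67 (1.28 to 2.13) and the Rbp4 ratio 1.93. Rbp4 lay inside the quartiles for 2 of the 3 libraries and above the upper quartile for male misaligned ZT0.

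In the 4 libraries without a call, a summit at the relative background of Rbp4 in male misaligned ZT12 would have needed a height of 3.03 to 3.37 to be called. The height of 10.7 is 3.17 to 3.53 times that requirement, which does not allow for the greater heights of male misaligned ZT12 at most shared sites. The lower interval bounds of the male misaligned ZT0 and male control ZT12 peaks lay below the requirement, so a site of their height could have been missed at this depth. The background at the locus in the uncalled libraries is not known, and the values assume the same multiple of the lowest background, which at Rbp4 itself ranged from 1.31 to 2.00.

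**Figure D1:**
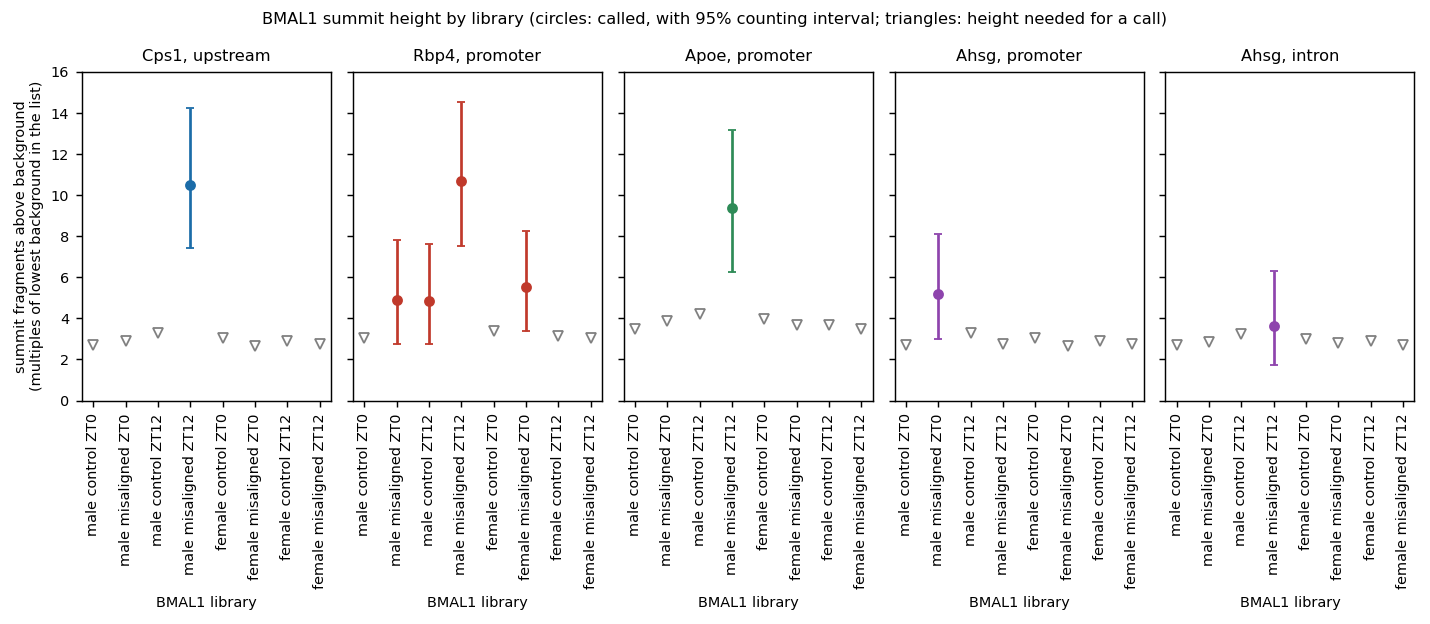
Height of the BMAL1 summit above local background, in multiples of the lowest background of the list, at the 5 intervals (panels) in the 8 libraries. Circles are called peaks with 95% counting intervals, and triangles mark the height a call would have needed where there was none. Rbp4 has 4 circles from 4.84 to 10.7, while each other interval has 1.

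The 4 Rbp4 peaks shared 182 bp, and their summits lay on both sides of the RefSeq start at 38124811. Along the gene the summit was at 50 bp upstream in male misaligned ZT12, 32 bp upstream in female misaligned ZT0, 191 bp upstream in male control ZT12 and 23 bp downstream in male misaligned ZT0. The summits spanned 214 bp. Over 149 other intervals called in at least these 4 libraries the median span was 52 bp, and 11.4% had a span as wide as that of Rbp4. The capitals of the printed Rbp4 sequence are 141 bases of the shared stretch, and the rest lies downstream of the start. Within 100 kb of Rbp4, male misaligned ZT12 alone had other intervals, at the fatty acid receptor gene Ffar4 (-log10 q 3.24) and at Fra10ac1 (2.84 and 7.54).

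Ahsg had a call in each misaligned male library, but at different places. In male misaligned ZT0 the peak lay over the promoter (ENSMUSG00000022868, chromosome 16, 22891214 to 22891902, centre 484 bp upstream of the TSS). Its fold enrichment was 4.00, with -log10 q of 6.46 and 29 summit fragments over a background of 6.49. In male misaligned ZT12 the peak lay in intron 2 of 6 (22894301 to 22894617, centre 2417 bp downstream), with a fold enrichment of 3.07, -log10 q of 3.08 and 22 fragments over 6.49. The intervals are 2398 bp apart and share no base, so no site at Ahsg was called in more than 1 library. RefSeq also places a long non-coding RNA gene, Gm30505 (22874983 to 22894386), across the promoter interval and the start of the intron interval.

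The promoter site of Ahsg stood 5.21 times the lowest background above its own background (2.99 to 8.13), with its summit 227 bp upstream of the RefSeq start. In the 7 other libraries a call would have needed 2.65 to 3.28, and 2.73 in male misaligned ZT12. The intron site stood at 3.65 (1.72 to 6.30) against a requirement of 2.69 to 3.26 elsewhere. At this depth, a difference between libraries at the intron site was not detectable. The lower bound of 2.99 at the promoter site falls within the range of requirements as well.

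The neighbour of Ahsg, Fetub, encodes the related plasma protein fetuin-B and was called at 1 shared interval in both misaligned male libraries. This interval (22920091 to 22920420, 1873 bp from the Fetub TSS) had -log10 q of 5.58 in male misaligned ZT0 and 14.1 in male misaligned ZT12. A second Fetub interval (22921990 to 22922806, intron 1 of 7) was called in male misaligned ZT12 alone, with 5.35. On the other side, Tbccd1 had 2 intervals in male misaligned ZT12, with -log10 q of 4.06 and 6.04. Male misaligned ZT12 thus held 5 intervals within 100 kb of the Ahsg promoter, and the strongest was at Fetub.

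At the Apoe promoter a peak was called in male misaligned ZT12 alone. The interval (ENSMUSG00000002985, chromosome 7, 19699032 to 19699323) was centred 127 bp upstream of the authors' TSS. Promoter windows of 3 RefSeq starts were available for the gene. The RefSeq gene spans 19696244 to 19701310, so the interval lies inside it and an earlier start has no window here. Its summit was 39 bp downstream of the RefSeq start at 19699188. The peak had a fold enrichment of 4.03, -log10 q of 13.2 and 52 fragments over a background of 12.2, which was 2.86 times the lowest of the list and the highest relative background among the 8 member peaks. Its height was 9.36 (6.27 to 13.2), against 3.47 to 4.20 needed in the 7 libraries without a call. That requirement does not allow for the generally greater heights of male misaligned ZT12. At sites called in both, their median ratio was 1.58 to male misaligned ZT0, 2.19 to male control ZT12 and 1.67 to female misaligned ZT0. The missing calls are therefore not read as missing binding.

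Apoe lies in a cluster of apolipoprotein genes, and its neighbours also carried peaks in male misaligned ZT12. Apoc2, whose product activates lipoprotein lipase, had intervals at its promoter (-log10 q 4.06) and in intron 1 (7.81). An interval nearest Apoc4, an apolipoprotein of triglyceride-rich particles, had 3.01. On the other side an interval at 16005 bp from that of Apoe (19715329 to 19715888, nearest Gm20512, -log10 q 10.3) was annotated as promoter. Cblc had an interval in male misaligned ZT0 (9.19) and another in male misaligned ZT12 (4.22). In the 6 other libraries no interval was called within 100 kb of Apoe.

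By -log10 q, Cps1 carried the strongest of the 8 member peaks, upstream of the gene and in male misaligned ZT12 alone. The interval (ENSMUSG00000025991, chromosome 1, 67116467 to 67117091) was annotated intergenic, 6247 bp upstream of the authors' TSS and 5335 bp before the first base of the RefSeq gene. The peak had a fold enrichment of 7.05, -log10 q of 24.3 and 51 summit fragments over a background of 6.38. Its height was 10.5 (7.43 to 14.3), while 2.65 to 3.29 would have been needed for a call in the 7 other libraries. A site of that height at the same relative background would have passed in each of them, also at the lower bound. This does not allow for the greater heights that male misaligned ZT12 had at most shared sites, so the missing calls are not read as missing binding.

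Inside the Cps1 gene a second, weak peak was called in the same library. It lay in intron 24 of 37 (67198139 to 67198450) with -log10 q of 1.45 and a fold enrichment of 2.57, and ranked 5444 of 5542. The authors' table assigns it to Gm15668, whose TSS is nearer, so it is not one of the 5 intervals. No other interval lay within 100 kb of the upstream site.

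**Figure D2:**
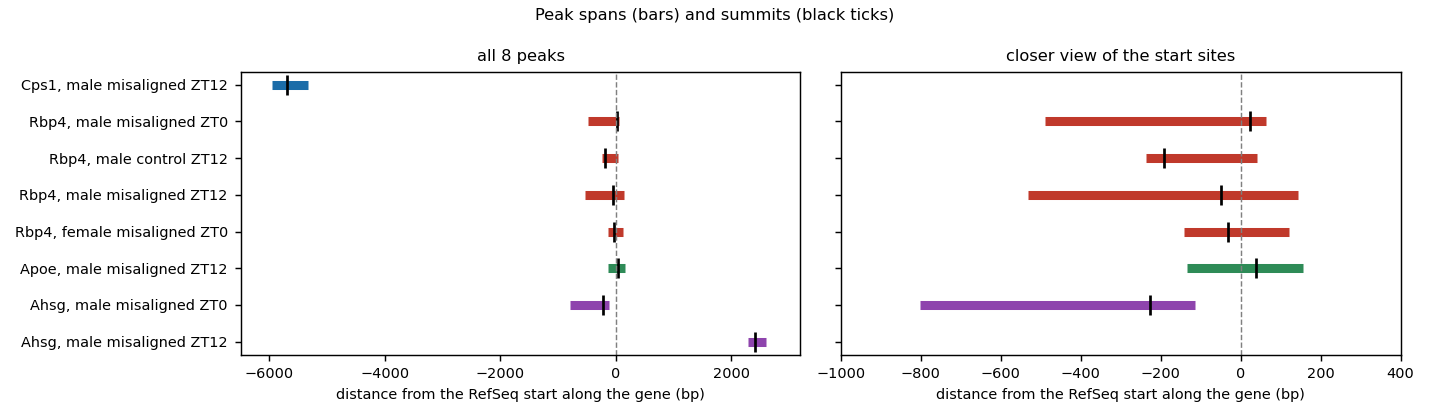
Extent of the 8 member peaks (bars) and their summits (black ticks) in bp from the RefSeq start along each gene (dashed line at 0), for all peaks (left) and near the starts (right). The 4 Rbp4 peaks and the Apoe peak lie across the start, the Ahsg peaks on either side of it, and the whole Cps1 peak at least 5335 bp upstream.

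The member peaks stood in the middle or lower ranks of their lists, apart from 3 of the 4 in male misaligned ZT12. By -log10 q, Cps1 ranked 512, Rbp4 621, Apoe 1128 and Ahsg 4292 of the 5542 peaks of male misaligned ZT12. In male misaligned ZT0 Ahsg ranked 692 and Rbp4 837 of 1864. Rbp4 ranked 219 of 290 in male control ZT12 and 557 of 1330 in female misaligned ZT0. When every list was shortened to its 141 strongest peaks, the length of the shortest list, no member was called in any library. By fold enrichment, Apoe ranked 2120 in male misaligned ZT12.

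**Figure D3:**
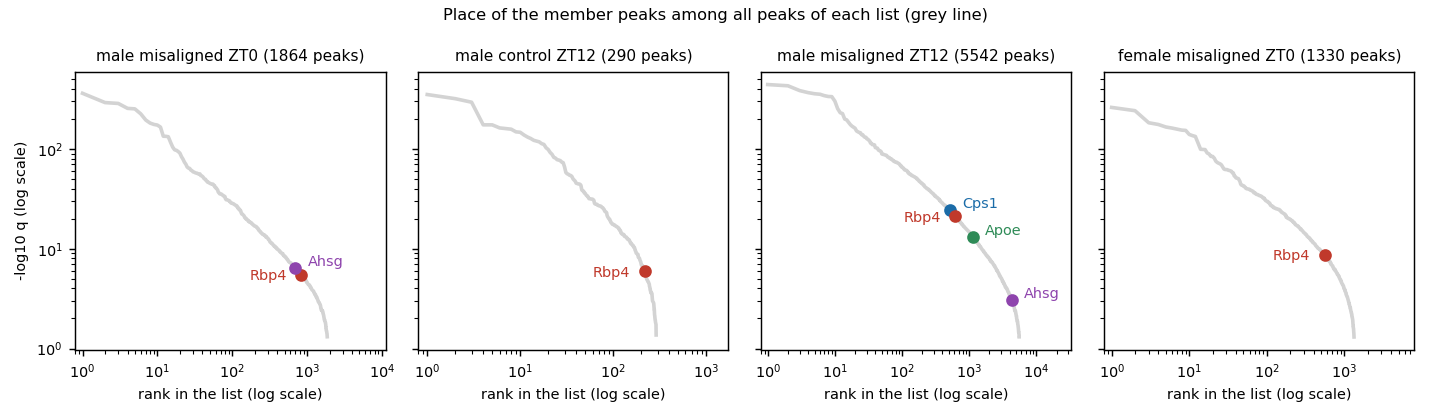
-log10 q of the member peaks (coloured points) against their rank, on log axes, with all peaks of the list as a grey line, in the 4 libraries that call a member. The points run from rank 219 of 290 for Rbp4 in male control ZT12 to rank 4292 of 5542 for Ahsg in male misaligned ZT12.

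Across conditions, the members were called mostly in the longer lists. The count was 4 of 4 in male misaligned ZT12, where 81.3% of the 5527 nearest genes of the table were called. It was 2 in male misaligned ZT0 (31.0%), 1 in female misaligned ZT0 (22.4%) and 1 in male control ZT12 (4.65%). No member was called in male control ZT0 (6.22%), female control ZT0 (3.89%), female control ZT12 (2.37%) or female misaligned ZT12 (3.73%). The members were chosen by these calls, so nothing is read from the counts. Without male misaligned ZT12, Rbp4 would have calls in 3 libraries and Ahsg in 1, and Cps1 and Apoe in 0.

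Set by treatment, Rbp4 and Ahsg were called in male misaligned ZT0 and not its control (26.1% of nearest genes), and Cps1, Apoe and Ahsg in male misaligned ZT12 and not its control (77.3%). Rbp4 was called in both male ZT12 libraries (4.0%). In females Rbp4 was called in misaligned ZT0 and not its control (20.8%), and no member in misaligned ZT12 and not its control (2.57%). No member was called in a control and not the misaligned library of its pair, a pattern of 1.34% and 0.651% of nearest genes in males and 2.32% and 1.21% in females at ZT0 and ZT12.

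Set by time, Cps1 and Apoe were called in misaligned males at ZT12 and not ZT0 (61.5% of nearest genes), and Rbp4 in control males at ZT12 and not ZT0 (2.5%). In misaligned females Rbp4 was called at ZT0 and not ZT12 (19.8%). Set by sex, all 4 genes were called in misaligned males and not females at ZT12 (78.2%), Ahsg in misaligned males and not females at ZT0 (20.3%), and Rbp4 in control males and not females at ZT12 (3.27%). Differences between libraries were not tested.

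Cps1, Apoe and the intron site of Ahsg had the most common pattern of the table, a call in male misaligned ZT12 alone, which 4106 intervals (58.3%) showed. The Ahsg promoter site was 1 of 807 intervals (11.5%) called in male misaligned ZT0 alone. The pattern of Rbp4 was rare: 19 intervals (0.270%) were called in exactly its 4 libraries, and 339 (4.81%) in at least 4. By mean rank in the 4 lists, taken as a percent of list length, Rbp4 stood 15 of these 19, at 43.4%. The likest by that measure were Cdk4, a kinase of the G1 phase, at 43.6%, Kif1a, a kinesin motor, at 38.6%, and Mnt, a repressor of the MYC network, at 48.7%.

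Genes of liver metabolism also shared the Rbp4 pattern. Dgat2, whose product completes triglyceride synthesis, had a promoter interval that stood 2 of 19. Its -log10 q was 61.6 in male misaligned ZT12, 25.8 in male control ZT12, 43.0 in male misaligned ZT0 and 23.1 in female misaligned ZT0. Pck1, the rate-limiting enzyme of gluconeogenesis, stood 18 of 19, with 2.85 in male misaligned ZT12, against 6.99 in its control, 6.06 in male misaligned ZT0 and 8.93 for misaligned females at ZT0. At Pck1 the -log10 q of male misaligned ZT12 was thus the lowest of the 4, unlike at Rbp4. These values depend on depth and background, so they do not rank binding between libraries. Both genes were picked after their values were seen.

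For the others, likeness was taken over 1 library among 4105 or 806 intervals of the same pattern, so close neighbours are many. For Cps1 they were intervals nearest Gm12527 (-log10 q 24.3), Anxa7 (24.3) and C230037L18Rik (24.4), for Apoe those nearest Slc22a16, Gm26863 and Leprot (13.2 each). For the Ahsg promoter they were Gadd45g (6.46), Stau1 (6.47) and Gm12691 (6.48).

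In location, 3 of the 5 member intervals were annotated as promoter, 1 as intron and 1 as intergenic. Over all 7043 intervals the shares were 33.6%, 33.5% and 24.3%. A peak overlapped a RefSeq promoter window (250 bases before to 50 after a start) of Rbp4 in all 4 libraries that called it, of Apoe in male misaligned ZT12 and of Ahsg in male misaligned ZT0. Among all 32851 windows a peak overlapped 5.54% in male misaligned ZT12, 2.28% in male misaligned ZT0, 2.2% in female misaligned ZT0 and 0.268% in male control ZT12.

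The canonical E-box CACGTG, the element that CLOCK and BMAL1 bind, was not found in any of the 6 promoter windows of Rbp4, Apoe and Ahsg. Both strands read alike for this motif. The related elements CACGTT and AACGTG, each the reverse complement of the other, were absent from these letters too. CACGTG was in 7.15% of all 32851 windows (exact Clopper-Pearson 95% interval 6.87 to 7.43) and in 454 of the 1819 windows overlapped by a peak in male misaligned ZT12 (23.0 to 27.0%). It was in 40.5% (33.4 to 48.0) of the 185 windows overlapped in at least 4 libraries, a class that Rbp4 belongs to. Of the 6 member windows 4 were overlapped by a peak, and the exact interval of a count of 0 of 4 reaches a share of 60.2%, above both of these classes. The intervals cover counting error only, and windows of a gene can overlap. The windows are shorter than several of the peaks, and the rest of each peak was not searched.

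Other motifs were searched after the sequences were seen. The Rbp4 window holds TTATGCAA, a match to the D-box TTATGNAA bound by DBP, HLF and TEF, at 128 to 121 bases before the start, inside the capitals printed above. The D-box, searched on both strands, was in 3.38% of all windows and 4.86% (9 of 185) of those overlapped in at least 4 libraries. CANNTG, the general E-box form, which also takes in CACGTG, was in 2 of the 6 windows and in 72.3% of all. Those 2 matches were in the windows of other starts, CACTTG at 236 to 231 bases before the Rbp4 start at 38125321 and CAGGTG at 212 to 207 bases before the Apoe start at 19698621. G and C made up 70.8% of the printed Rbp4 bases, 57.2% of those of Apoe and as many as A and T in Ahsg, against a median of 52.4% over all windows and 63.2% over windows with a peak in male misaligned ZT12.

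To set the genes in their pathways, 5 gene lists were searched for peaks no farther than 10 kb from a TSS, which include the 4 genes themselves. In the urea cycle and its nitrogen supply, 5 of 13 genes had a peak in male misaligned ZT12, where 9.33% of 21900 protein-coding genes had one. Besides Cps1 these were Slc25a13, the aspartate-glutamate carrier citrin (-log10 q 9.76), Car5a, the mitochondrial carbonic anhydrase that supplies bicarbonate (5.40), Slc25a15, the ornithine carrier (4.33), and Gls2, liver glutaminase (2.69). Male misaligned ZT0 had 2 (3.66% of all genes), Ass1, which makes argininosuccinate (4.69), and Gls2 at another interval (2.77). The 6 remaining libraries had 0 of 13, male control ZT0 (0.84% of all genes) among them. The cycle enzymes Otc, Asl and Arg1 had none within 10 kb in any library. Arg1, the arginase that releases urea, had an intergenic interval at -21111 bp, called in 3 libraries and picked here after its values were seen. Its -log10 q was 18.6 in male misaligned ZT12, 9.12 in male misaligned ZT0 and 9.37 in female misaligned ZT0.

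Of 38 secreted plasma proteins, 12 had a peak in male misaligned ZT12 (9.33% of all genes) and 4 in male misaligned ZT0 (3.66%). There was 1 each in male control ZT12 (0.484%), female control ZT0 (0.429%) and female misaligned ZT0 (3.07%). In the last, and in male control ZT12, that gene was Rbp4. After Rbp4 the strongest in male misaligned ZT12 were Serpina6, corticosteroid-binding globulin (-log10 q 19.6), Fetub (14.1), Igfbp1, which binds insulin-like growth factors (9.33), and complement C3 (7.54). Serpina1b, of the alpha-1-antitrypsin family (7.02), and Kng2, a kininogen (5.72), followed. Serpina1a, Serpina1b and other copies of that family are near-identical, so their reads can be shared. The list held 1 gene, Afp, in female control ZT0 (3.06).

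Of 13 apolipoprotein genes, 5 had a peak in male misaligned ZT12 (9.33% of all genes) and 1 in male misaligned ZT0 (3.66%). Apoe was the strongest, before Apoa5, an activator of triglyceride clearance (8.19), Apoc2 (7.81), Apoc3, an inhibitor of lipoprotein lipase (3.49), and Apoc4 (3.01). Apoa4 in male misaligned ZT0 had 2.19. Apoe, Apoc2 and Apoc4 are neighbours, as are Apoa4, Apoa5 and Apoc3, so they are not independent sites.

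Of 13 genes of lipoprotein uptake and lipid transfer, 5 had a peak in male misaligned ZT12 (9.33% of all genes). Among them were Pltp, which moves phospholipids between lipoproteins (-log10 q 7.71), Scarb1, the receptor for high-density lipoprotein (7.37), and Vldlr, a receptor for triglyceride-rich particles that bind APOE (2.58). Each of these 3 was called in that library alone.

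Of 14 genes of retinol handling, Rbp4 was the one called in most libraries. Dhrs3, which reduces retinal to retinol, had a promoter interval in female misaligned ZT0 (6.17) and another in intron in male misaligned ZT0 (4.04). Cyp26a1, which breaks down retinoic acid, had one in male misaligned ZT12 (11.6) and the receptor gene Rara one in female misaligned ZT0 (4.66). Ttr, whose product binds RBP4 in plasma, had none within 10 kb in any library. The counts were 3 of 14 in female misaligned ZT0 (3.07% of all genes), 2 in male misaligned ZT0 (3.66%), 2 in male misaligned ZT12 (9.33%) and 1 in male control ZT12 (0.484%). The share in male misaligned ZT12, 14.3% of the list, was near that of all genes.

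Taking the 5 lists as 89 separate genes, 33 (37.1%) had a peak in at least 1 library, against 11.6% of all protein-coding genes. The lists were chosen with results of these libraries known and lack a test. Without male misaligned ZT12 the other 7 libraries called 2 urea cycle genes, 5 secreted protein genes, 1 apolipoprotein gene and 3 of retinol handling. The share of all protein-coding genes over those 7 libraries was not worked out, so nothing is read from these counts. Within 1 kb of the TSS, male misaligned ZT12 held 3 of 13 urea cycle genes, 4 of 38 secreted protein genes, 3 of 13 apolipoprotein genes, 2 of 13 of lipoprotein uptake and 1 of 14 of retinol handling, where 5.7% of all protein-coding genes had a peak. In female control ZT12 (0.247% of all genes) and female misaligned ZT12 (0.457%) all 5 lists stood at 0. None of 5 hepatocyte marker genes (Alb, Ttr, Apoa1, Cyp2e1, Hnf4a) had a peak within 10 kb, nor did any of 4 markers each for lymphocytes, cholangiocytes, endothelium, stellate cells and Kupffer or myeloid cells. Alb, the albumin gene, had an interval outside that range, at -14527 bp, also picked after its values were seen, with -log10 q of 24.3 in male misaligned ZT12 and 6.67 in female misaligned ZT0. Such distant intervals were not particular to Alb. In male misaligned ZT12 the hepatocyte marker Apoa1 (-29168 bp, -log10 q 3.30) and the endothelial marker Stab2 (-43914 bp, 6.17) had them too. Calls at marker genes give no check of which cells a library held.

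**Figure D4:**
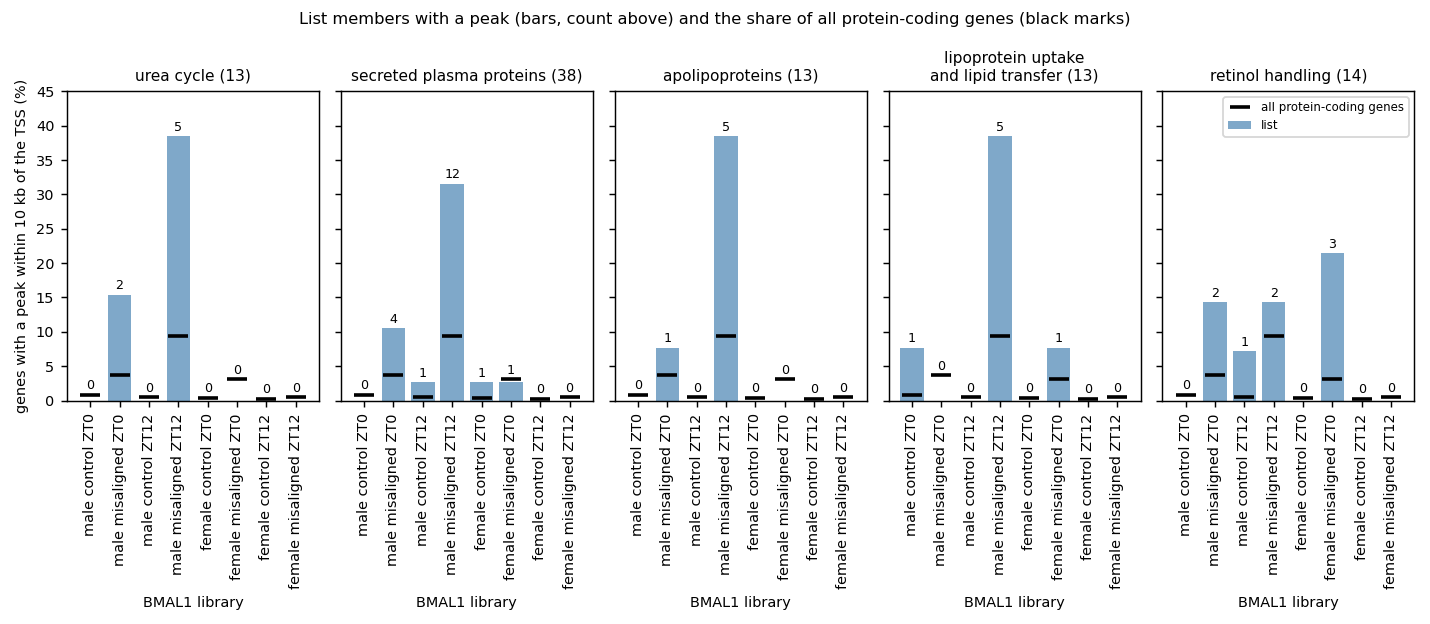
Share of list members with a BMAL1 peak within 10 kb of the TSS (bars, with the count above, list size in the title) in the 8 libraries, beside the share of all protein-coding genes (black marks). Male misaligned ZT12 has the highest bar in 4 of the 5 lists, and retinol handling has its highest, 3 of 14, in female misaligned ZT0.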

How the data were processed

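Per the submitters' processing notes, BWA 0.7.17-r1188 and MACS2 2.2.7.1 were used with GRCm38. The control, thresholds and merging tool are not given in the sources used here. The deposited peak lists give a score, the authors' fold enrichment as a ratio, -log10 p and -log10 q. The deposited table of merged intervals holds the count of libraries with a call; its calls matched the lists, whose 9986 peaks all lay inside its intervals. Fold enrichment and -log10 p were solved for summit fragments, as an integer, and for background (relative tolerance 0.0001) for 99.1% to 100% of peaks per list. Tested on 500 simulated peaks drawn from the lists, 100% came back correctly, and 0.6% of 500 peaks with scaled fragments were accepted. Intervals printed here are 1-based. Protein-coding genes were matched to RefSeq GRCm38.p6 by symbol or synonym (3562 of 3687 nearest genes).

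Groups came from the labels. No test was run: each group has 1 library. Intervals are exact (95%). The members and lists were chosen with earlier results of these data known. Named genes were the 4 members, the 3 intervals likest each, neighbours within 100 kb, and up to 8 members of each list by -log10 q; some list members are not reported here by name. Alternatives were stricter q, distance, overlap, background and motif rules. Python 3.11.15, numpy 2.4.6, pandas 2.3.3 and scipy 1.17.1 were used.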

Additional observations from a re-analysis of the deposited data

How the results depend on the processing

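No paired analysis was possible because each group has 1 library and the groups share only replicate number 1. Of 88 alternatives, 61 left the value within 1.5 times the main one, and 27 moved it. Apoe kept its call in 1 library at -log10 q of at least 10 and within 1 kb. Asking for -log10 q of at least 10 left Rbp4 in 1 library and Ahsg in 0. Within 1 kb of the TSS, Cps1 had 0 libraries and Ahsg 1, as Ahsg had by RefSeq promoter window. When a peak had to cover at least 50% of the interval, Rbp4 had 2 libraries. Added after seeing the data, lists of equal length gave 0 libraries for Cps1, Rbp4, Apoe and Ahsg. Without the library male misaligned ZT12, Cps1 and Apoe had 0, Ahsg 1 and Rbp4 3. By fold enrichment the Apoe peak ranked 2120 in place of 1128.

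For the lists in male misaligned ZT12, counts within 1 kb were 3 (urea cycle), 4 (secreted proteins), 3 (apolipoproteins), 2 (lipoprotein uptake) and 1 (retinol handling). At that distance 5.7% of all protein-coding genes had a peak in this library. Retinol handling had 4 at any distance. Over the other 7 libraries, within 1 kb, the urea cycle list fell from 2 to 0 and secreted proteins from 5 to 3, and secreted proteins rose to 8 at any distance. At -log10 q of at least 3 there were 1 urea cycle and 0 apolipoprotein genes there. The share of all protein-coding genes was not worked out for these 7 libraries together or for any distance. Nothing is therefore read from those counts. In the 6 windows of the members, 0 held CACGTG, 1 TTATGNAA and 2 CANNTG, and these are different motifs rather than settings of 1 value. The lowest background was 4.25 to 6.16 fragments. The lowest -log10 p of a list ran from 4.15 in male misaligned ZT12 to 5.52 in female control ZT12, so weaker peaks entered the longest list.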
